A study of Mus musculus with 3 samples.

Results

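Plasminogen activation and coagulation genes were examined in cultured mouse dermal fibroblasts that differ in the receptor tyrosine kinase Fgfr3. The set was defined by name as 9 genes: the plasminogen activators Plau and Plat, the receptors Plaur and Anxa2, the inhibitors Serpine2 and Serpinb2, the coagulation initiator F3, and the anticoagulants Thbd and Tfpi. All probe sets annotated to a single one of these symbols were taken. This gave 8 genes of the 7842 named genes on the array, each with 1 probe set, and Serpine2 was not analysed here. FGFR3Act cells came from mice with the G374R change in Fgfr3 and no neo cassette, in which the receptor signals without ligand. FGFR3KO cells came from mice that carry the same changed allele with the neo cassette still in place and, per the labels, express no functional receptor. Wild-type Bl6 mice gave the FGFR3WT cells. The genetic background of the mutant mice, the number of mice behind each culture and the passage of the cells are not given in the labels, and no treatment was applied.

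Plasmin is the protease that dissolves fibrin and cleaves matrix proteins. It is made from plasminogen by urokinase (Plau) or tissue-type plasminogen activator (Plat). Urokinase works at the cell surface when bound to its receptor, the lipid-anchored protein encoded by Plaur, and annexin A2 with its partner S100a10 binds plasminogen and tissue-type activator. Serpins such as those of Serpine2 and Serpinb2 block the activators. Clotting starts on the other side of this balance, when tissue factor (F3) on fibroblasts and other cells outside the blood stream meets factor VII. The tissue factor pathway inhibitor (Tfpi) blocks that complex, and thrombomodulin (Thbd) turns thrombin from a clotting enzyme into an activator of the anticoagulant protein C.

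The data held 1 array per genotype, so each difference below is one between 2 arrays. No error between replicates, and no test of a genotype, could be computed, although the series states n = 3 for all groups. Values are MAS5 signal intensities, Affymetrix's linear summary of the probes of a probe set. Signals below a floor, set at the 40th percentile of each array (123 on FGFR3Act against 122 on FGFR3KO and 121 on FGFR3WT), were raised to it before log2 differences were taken. The count threshold of 2-fold describes size only. Fgfr3 itself lay far below the floor, at signals of 2.42 on FGFR3Act against 3.76 on FGFR3KO and 1.06 on FGFR3WT, so it could not check the genotypes. All 14 fibroblast markers on the array were above the floor on every array. The FGFR3Act array also held macrophage transcripts. Among the macrophage and leukocyte marker genes, 18 were measured, of which 15 were above the floor on FGFR3Act and 1, Cd14, on each of the other arrays. Their summed signal was 39651 on FGFR3Act against 1364 on FGFR3KO and 1194 on FGFR3WT. Ptprc, Itgam and Aif1 were below the floor on all 3 arrays, while Ctss, Lyz2 and Mpeg1 were highest on FGFR3Act, at 11427, 7037 and 6665. Macrophages can make several of the genes described here, among them Plau, Plaur, Thbd and F3, and the part of such cells in any difference of FGFR3Act was not tested. In bulk RNA, more cells of a type and more RNA per cell cannot be told apart. Endothelial cells also make Thbd, Tfpi and Plat, and 7 of 8 endothelial markers were below the floor on all 3 arrays, Cdh5, Tie1 and Cldn5 under a signal of 11 each. Flt1 was the exception, at 449 on FGFR3Act against 421 on FGFR3KO and 342 on FGFR3WT.

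**Figure D1:**
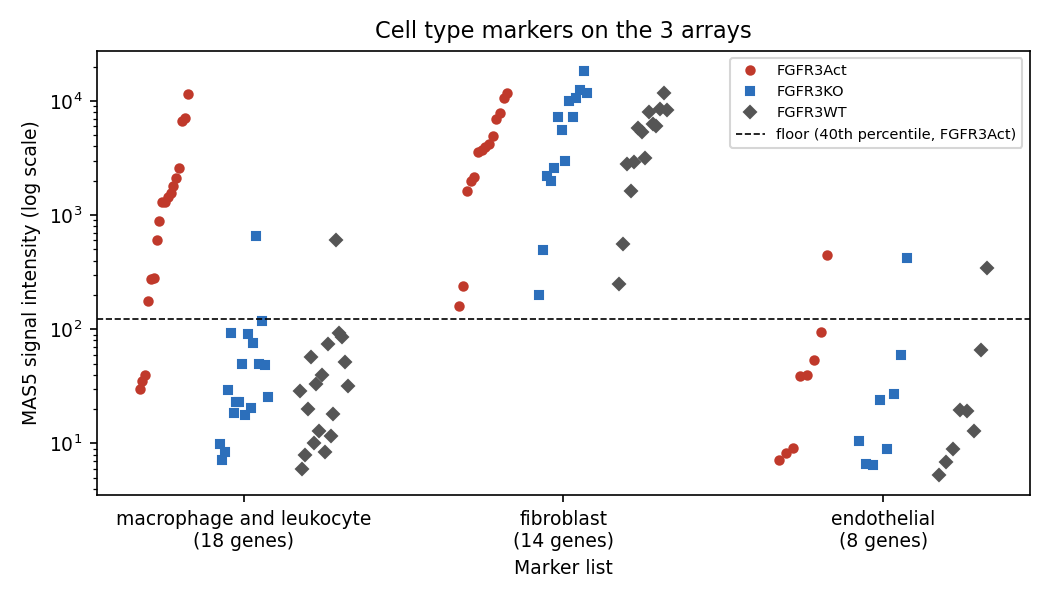
MAS5 signals (log scale) of macrophage and leukocyte, fibroblast and endothelial marker genes, 1 point per gene and array, with the genes of a list in the same left-to-right order on each array. The dashed line is the floor of the FGFR3Act array (123), which 15 of 18 macrophage and leukocyte markers pass on FGFR3Act and 1 passes on each of the other arrays.

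Of the 8 genes, 7 were above the floor on all 3 arrays, as were 4503 of all 7842 genes. All 7 had a higher signal on FGFR3Act than on FGFR3WT. Among all 5244 genes that could be compared in that pair, 44.1% were higher on FGFR3Act and 55.7% lower. Plaur was the 1 gene of the set at least 2-fold higher, and 0 were at least 2-fold lower, against 4.14% and 4.79% of all genes (8.92% in either direction). The median log2 difference over the 8 genes, with a gene below the floor on both arrays counted as 0, was 0.69, while the median over all 7842 genes handled in the same way was 0. FGFR3KO was closer to FGFR3WT, with 3 genes higher and 4 lower (48.4% and 51.5% of all genes) and a median of -0.06. Tfpi was the 1 gene at least 2-fold apart in that pair, where 5.54% of 5184 genes were, 1.93% higher and 3.61% lower. Between the mutants, Plaur and Plau were at least 2-fold higher on FGFR3Act, 2 of 8 genes, and 0 were at least 2-fold lower, against 8.33% and 7.49% of 5297 genes (15.8% in either direction). By any amount, 5 genes were higher on FGFR3Act than on FGFR3KO and 2 lower, against 46.7% and 53.2% of all genes, with a median log2 difference of 0.61. The 3 pairs share arrays and are not independent of each other.

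**Figure D2:**
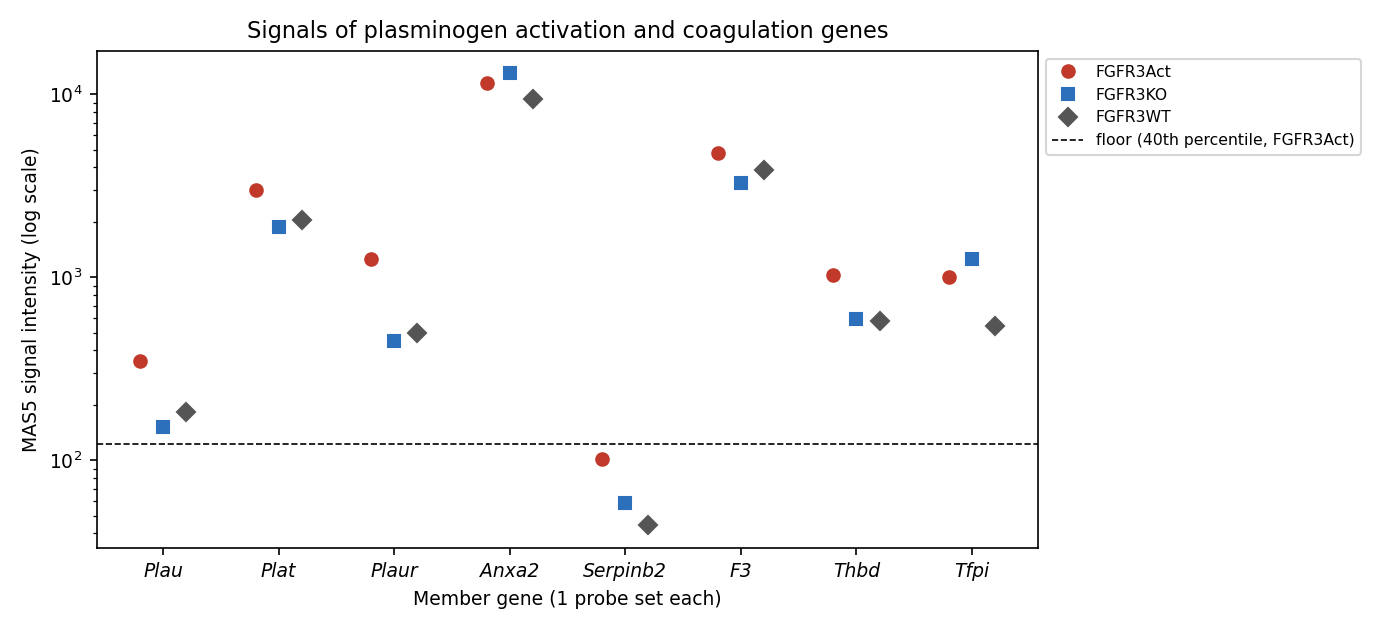
MAS5 signals (log scale) of the 8 genes on the 3 arrays, 1 point per array, with the floor of the FGFR3Act array as a dashed line. FGFR3Act is the highest array for Plau, Plat, Plaur, F3 and Thbd, FGFR3KO is the highest for Anxa2 and Tfpi, and Serpinb2 is below the floor throughout.

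The activators were both highest on FGFR3Act and lowest on FGFR3KO. Plau, the urokinase gene, had signals of 349 on FGFR3Act against 152 on FGFR3KO and 183 on FGFR3WT. Its FGFR3Act signal thus stood apart, while both other arrays were only slightly above the floor. FGFR3Act exceeded FGFR3WT by 1.91-fold, a log2 difference of 0.93 that 4.69% of all genes reached or passed. Against FGFR3KO it was 2.29-fold higher on FGFR3Act, and FGFR3KO was 1.20-fold below FGFR3WT. With the floor at the 60th percentile no difference of Plau could be measured. Its FGFR3WT and FGFR3KO signals lay under that floor. Its FGFR3Act signal passed the floor of its own array but not those of the others. Plat, the gene of tissue-type plasminogen activator, had signals of 2996 on FGFR3Act against 1879 on FGFR3KO and 2049 on FGFR3WT. The FGFR3KO and FGFR3WT arrays were nearly level, 1.09-fold apart, and FGFR3Act was 1.46-fold above FGFR3WT and 1.59-fold above FGFR3KO. The log2 difference of Plau between FGFR3Act and FGFR3WT exceeded that of Plat by 0.38. With no replicate arrays, the error of that gap is not known.

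Plaur, the urokinase receptor gene, had the widest spread of the set. Its signals were 1268 on FGFR3Act against 449 on FGFR3KO and 495 on FGFR3WT. FGFR3Act stood apart again, 2.56-fold above FGFR3WT and 2.82-fold above FGFR3KO, while FGFR3KO was 1.10-fold below FGFR3WT. Of all genes, 2.4% were at least as far above FGFR3WT on FGFR3Act and 3.36% at least as far above FGFR3KO. Both differences stayed past 2-fold under each of the 10 alternative settings. Their log2 values were 1.33 or more against FGFR3WT and from 1.46 to 1.53 against FGFR3KO. The settings of floor, filter and probe sets left both values unchanged, so only the other scalings and the added offset of 16 moved them. On the same array the summed signal of the macrophage markers was 39651, against 1194 on FGFR3WT.

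Anxa2, which encodes the plasminogen-binding annexin A2, followed another order. It had signals of 11609.5 on FGFR3Act against 13039 on FGFR3KO and 9496 on FGFR3WT. Both mutant arrays were thus above FGFR3WT, FGFR3KO by 1.37-fold and FGFR3Act by 1.22-fold, and 15.3% and 23.9% of all genes were at least as far on the higher side. The order of the arrays depended on the scaling: after quantile normalisation FGFR3KO was level with FGFR3WT (log2 difference -0.01), and FGFR3Act stood 0.05 above FGFR3KO instead of below it. The partner gene S100a10 did not follow Anxa2 on FGFR3Act, and its signals were 3410.2 on FGFR3Act against 5810.4 on FGFR3KO and 5302 on FGFR3WT. It was 1.55-fold lower on FGFR3Act than on FGFR3WT, and the log2 difference of Anxa2 exceeded that of S100a10 by 0.93.

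The RefSeq promoter table (assembly GRCm38.p6) matched 5 of the 8 genes: Plaur, Anxa2, F3, Serpinb2 and Tfpi. The 250 bases before the annotated start are shown for 4 of them, to set Plaur and F3, both highest on FGFR3Act, beside Anxa2 and Tfpi, both highest on FGFR3KO. For Anxa2 that order depended on the scaling, as given above. Capitals mark the letters TGANTCA, the sequence that AP-1 (the Fos and Jun transcription factors) is known to bind. This motif reads alike on both strands, was chosen with the values known, and does not overlap another motif searched. The windows are chr7:24462233-24462482 (plus strand) for Plaur, chr3:121723287-121723536 (plus strand) for F3, chr9:69453433-69453682 (plus strand) for Anxa2 and chr2:84476760-84477009 (minus strand) for Tfpi.
Plaur: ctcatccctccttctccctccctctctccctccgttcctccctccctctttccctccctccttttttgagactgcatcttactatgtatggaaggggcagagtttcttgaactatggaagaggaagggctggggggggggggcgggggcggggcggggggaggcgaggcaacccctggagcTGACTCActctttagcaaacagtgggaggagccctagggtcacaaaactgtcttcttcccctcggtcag
F3: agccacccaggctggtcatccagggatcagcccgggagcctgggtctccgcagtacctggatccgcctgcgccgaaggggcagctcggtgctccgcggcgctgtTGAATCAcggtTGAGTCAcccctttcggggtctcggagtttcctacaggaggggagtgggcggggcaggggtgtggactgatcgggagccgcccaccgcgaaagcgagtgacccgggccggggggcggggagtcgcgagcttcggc
Anxa2: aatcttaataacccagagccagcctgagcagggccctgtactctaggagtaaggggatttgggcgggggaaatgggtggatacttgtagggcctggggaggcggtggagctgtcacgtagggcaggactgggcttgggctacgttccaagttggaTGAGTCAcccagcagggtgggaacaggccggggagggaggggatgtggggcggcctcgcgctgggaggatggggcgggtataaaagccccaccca
Tfpi: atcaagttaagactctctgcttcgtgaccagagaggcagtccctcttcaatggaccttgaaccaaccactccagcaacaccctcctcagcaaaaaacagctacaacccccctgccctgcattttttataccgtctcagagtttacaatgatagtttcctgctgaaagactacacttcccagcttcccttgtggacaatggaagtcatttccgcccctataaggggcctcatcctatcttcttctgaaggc
The motif begins 69 bases before the start in Plaur, 146 and 135 bases before it in F3, and 95 bases before it in Anxa2. Tfpi holds none in the window shown or in that of its other annotated start. Serpinb2 has it 94 bases before its upstream start. In all, 5 of the 7 windows of these genes hold the motif, while 6.75% of 32851 windows of the same length in the table do. By gene, 4 of the 5 hold it in a window and 7.82% of 27025 genes do, and the windows of Serpinb2 overlap and share 1 match. Anxa2 carries the motif and, in the deposited signals, had another order of arrays than Plaur and F3. After quantile normalisation its order was the same as theirs, with log2 differences from FGFR3WT of 0.04 on FGFR3Act and -0.01 on FGFR3KO. The letters GGGCGG, a GC box that Sp1 is known to bind, were searched on both strands. They occur in the windows of Plaur, F3, Anxa2 and Tfpi, in neither window of Serpinb2, and in 32.7% of all windows. A match describes these letters and is not evidence of binding.

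The inhibitor side was thin. Serpinb2, which encodes plasminogen activator inhibitor 2, had signals of 101 on FGFR3Act against 58.6 on FGFR3KO and 44.3 on FGFR3WT. All 3 lay below the floor, so no fold is given for them. Its probe set is of the _s_ kind, which can detect more than one transcript. With the floor at the 20th percentile Serpinb2 joined Plaur past 2-fold in FGFR3Act against FGFR3WT, so the place of the floor decides that count of 1 or 2.

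F3, the tissue factor gene, had signals of 4785 on FGFR3Act against 3281 on FGFR3KO and 3845 on FGFR3WT. The order was that of the activators and of Plaur, but the steps were small: FGFR3Act was 1.24-fold above FGFR3WT, which 22.5% of all genes reached, and FGFR3KO was 1.17-fold below FGFR3WT. Between the mutants F3 was 1.46-fold apart. F3, Plau, Plat and Plaur therefore shared the order FGFR3Act, FGFR3WT, FGFR3KO from high to low. This order was found in 4 of the 7 genes above the floor on all arrays and in 21.6% of the 4503 genes of the whole array that were above it.

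Of the anticoagulants, Tfpi was the gene of the set that was furthest from FGFR3WT on FGFR3KO. Its signals were 1008 on FGFR3Act against 1265 on FGFR3KO and 542 on FGFR3WT. Both mutant arrays were thus high and FGFR3WT was low. FGFR3KO was 2.33-fold above FGFR3WT, and 46 of 5184 genes (0.887%) were at least as far on that side. That difference stayed past 2-fold under each of the 10 alternative settings (log2 values from 1.20 to 1.34). The settings of floor, filter and probe sets left its log2 value unchanged, at 1.22. This difference did not involve the FGFR3Act array. Of the 18 macrophage and leukocyte markers, 17 were below the floor on both FGFR3KO and FGFR3WT, and Cd14 read 655 on FGFR3KO and 602 on FGFR3WT. Of 5 smooth muscle and pericyte markers on the array, 3 could be compared in this pair. At least 2-fold higher on FGFR3KO were 2 of them, against 1.93% of all genes. Of these 2, Cnn1 has a probe set of the _s_ kind, which can detect more than 1 transcript. Myh11 was at least 3.06-fold higher (370.0 against a signal below the floor) and Cnn1 2.61-fold (3936 against 1507), Mcam was lower (609 against 930.0), and Des and Rgs5 were below the floor on all 3 arrays. The summed signal of these 5 was 5010.4 on FGFR3KO, 2575 on FGFR3WT and 1487 on FGFR3Act. The part of macrophages, smooth muscle cells or pericytes in the Tfpi difference was not tested. FGFR3Act was 1.86-fold above FGFR3WT, a log2 difference of 0.90 that 5.07% of all genes reached and that passed 2-fold after cyclic loess (1.02). The log2 difference from FGFR3WT of Tfpi, the inhibitor, exceeded that of F3, its target, by 1.45 on FGFR3KO and by 0.58 on FGFR3Act.

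Thbd, the thrombomodulin gene, had signals of 1032 on FGFR3Act against 594 on FGFR3KO and 578 on FGFR3WT. FGFR3KO and FGFR3WT were nearly level, 1.03-fold apart, and FGFR3Act was 1.79-fold above FGFR3WT and 1.74-fold above FGFR3KO. Of all genes, 5.87% were at least as far above FGFR3WT on FGFR3Act. Tfpi and Thbd thus had almost the same log2 difference on FGFR3Act, 0.06 apart, and differed by 1.18 on FGFR3KO. The FGFR3Act value of Thbd comes from the array whose macrophage markers summed to 39651.

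**Figure D3:**
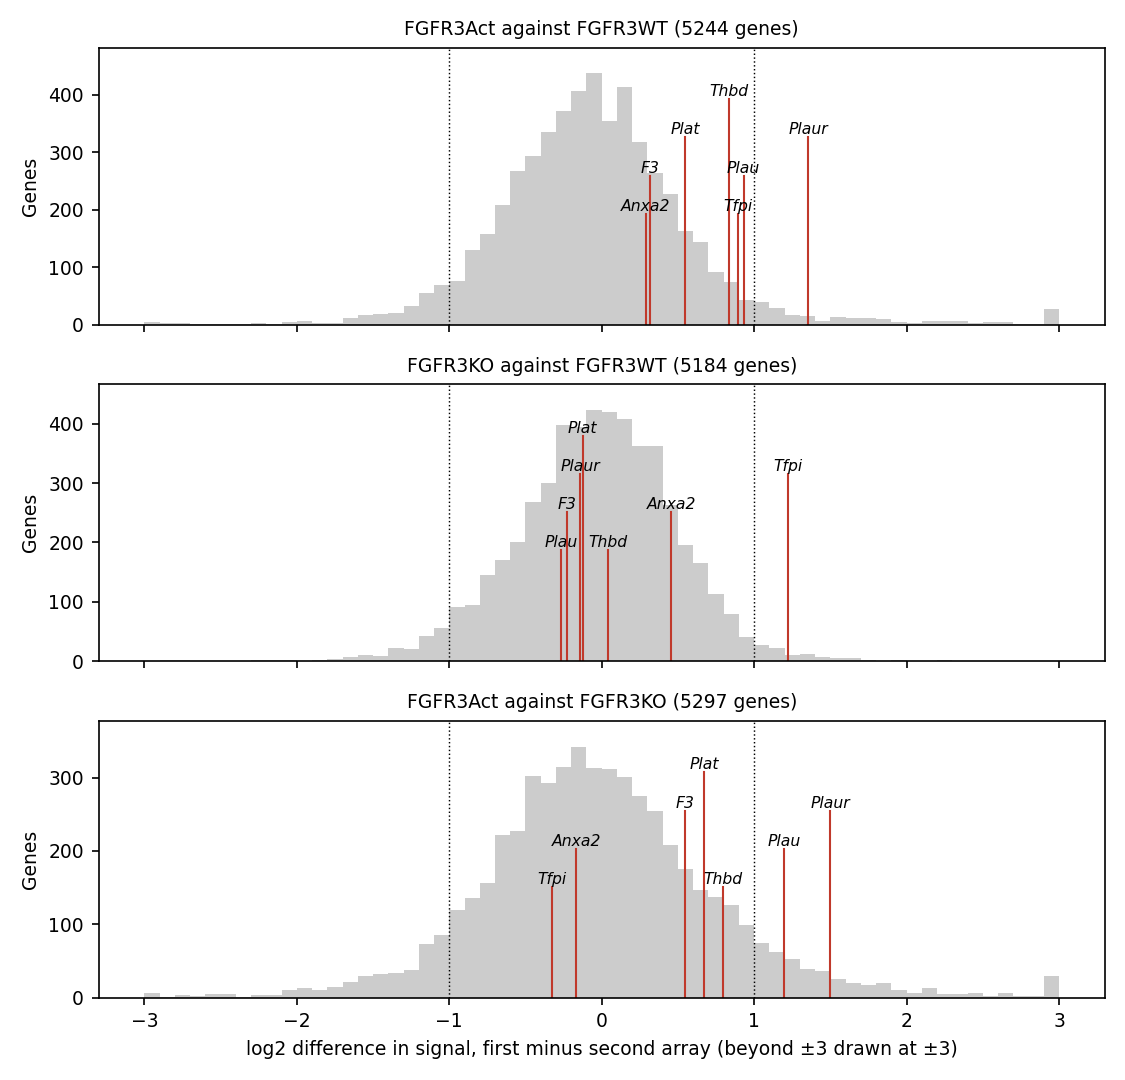
Log2 differences in signal of all comparable genes (grey histogram, bins of 0.1) and of the 7 genes above the floor (red lines, whose heights only separate the labels) in the 3 pairs of arrays; dotted lines mark 2-fold. All 7 lie right of 0 in FGFR3Act against FGFR3WT, and Tfpi alone passes 2-fold in FGFR3KO against FGFR3WT.

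The other genes of these pathways were taken from lists of textbook members. Of 20 further plasminogen activation genes, 15 were on the array and 6 could be compared in each pair. Besides S100a10, these were Plg, Plgrkt, Lrp1, Mrc2 and Kng1. At least 2-fold apart were 0 of the 6 in any pair. Of all genes, 8.92% were in FGFR3Act against FGFR3WT, 5.54% in FGFR3KO against FGFR3WT and 15.8% between the mutants. With 6 genes, a count of 0 does not set the list apart from those shares. The median log2 difference of the 6 was -0.23 on FGFR3Act and -0.02 on FGFR3KO, both against FGFR3WT. The medians of all comparable genes were -0.07 and -0.02. Plasminogen itself (Plg), a liver product, was at 101 on FGFR3Act, below the floor, and at 143 on FGFR3KO and 151 on FGFR3WT, just above it, and its other probe set was below the floor on all 3 arrays. The plasminogen receptor gene Plgrkt, at 766 on FGFR3Act against 922 on FGFR3KO and 1043 on FGFR3WT, and the clearance receptor gene Lrp1, at 1517, 1742 and 1706, differed from FGFR3WT by at most 1.36-fold on either mutant array.

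Of the listed circulating clotting factors, those on the array had transcripts below the floor in these cells, and F11 and F13a1 were not measured. Of 17 coagulation factors, cofactors and fibrinogen genes, 15 were on the array and 12 of those were below the floor on all 3 arrays, including F2, F5, F7, F8, F9, F10, Fga, Fgb, Fgg and Vwf. The 3 that could be compared act inside the cell. Mcfd2, part of the cargo receptor that carries factors V and VIII out of the endoplasmic reticulum, had signals of 4834 on FGFR3Act against 1669 on FGFR3KO and 3312 on FGFR3WT. FGFR3Act exceeded FGFR3KO by 2.90-fold, and FGFR3KO was 1.98-fold below FGFR3WT, which became 1 gene past 2-fold after cyclic loess. Its partner Lman1, at 3459, 2507 and 3298, and Vkorc1, the vitamin K reductase gene, at 3674, 5013 and 5064, were within 2-fold in all 3 pairs.

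Among 12 other anticoagulant genes, 10 were on the array. Of these, 5 could be compared in FGFR3Act against FGFR3WT and 6 in each of the other pairs. In both pairs with FGFR3Act 1 was at least 2-fold apart, where 8.92% (against FGFR3WT) and 15.8% (against FGFR3KO) of all genes were. Procr, the endothelial protein C receptor, which presents protein C to the thrombomodulin complex, had signals of 1299 on FGFR3Act against 325 on FGFR3KO and 251 on FGFR3WT. FGFR3Act stood well apart, 5.18-fold above FGFR3WT and 3.996-fold above FGFR3KO, so Procr lay further from FGFR3WT on that array than any gene of the set. Its log2 difference exceeded that of Thbd by 1.54. Macrophage markers were higher on the same array, as given above, and endothelial markers other than Flt1 were below the floor on it. The part of either cell type in the Procr difference was not tested. Pros1, the protein S gene, was lowest on FGFR3KO, with signals of 955 on FGFR3Act against 535 on FGFR3KO and 1034 on FGFR3WT, a 1.93-fold step from FGFR3WT. Proc, the protein C gene, passed the floor on FGFR3KO alone, at 123. Of the 3 thrombin and protease-activated receptor genes on the array, F2r was above the floor, with signals of 11177 on FGFR3Act against 11739 on FGFR3KO and 7884 on FGFR3WT for its brightest probe set. The 3 probe sets of F2r disagreed, since another read 351 on FGFR3Act against 133 on FGFR3KO and 412 on FGFR3WT and the third 444, 404 and 453, so no direction is given for F2r.

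Annexins and serpins related to the set showed no common direction. Of 8 annexin genes other than Anxa2 on the array, 7 could be compared. Anxa3 on FGFR3Act (5094) exceeded FGFR3WT (2337) by 2.18-fold and FGFR3KO (2223) by 2.29-fold. Anxa8, an annexin first described as a vascular anticoagulant, was 2.49-fold lower on FGFR3KO than on FGFR3WT (1615 against 4025) and 1.92-fold lower on FGFR3Act (2092). Anxa6 was 2.16-fold lower on FGFR3Act (1430.3) than on FGFR3KO (3092). The median log2 difference of the 7 was 0.02 on FGFR3Act and -0.07 on FGFR3KO, both against FGFR3WT. Of 6 other clade B and clade E serpins on the array, Serpinb6a and Serpinb9 could be compared. Serpinb9, an inhibitor of granzyme B, was 3.11-fold lower on FGFR3Act than on FGFR3WT (416 against 1296) and 2.57-fold lower than on FGFR3KO (1070.2). Serpinb6a was highest on FGFR3Act, at 7666 against 5193 on FGFR3KO and 5602 on FGFR3WT.

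**Figure D4:**
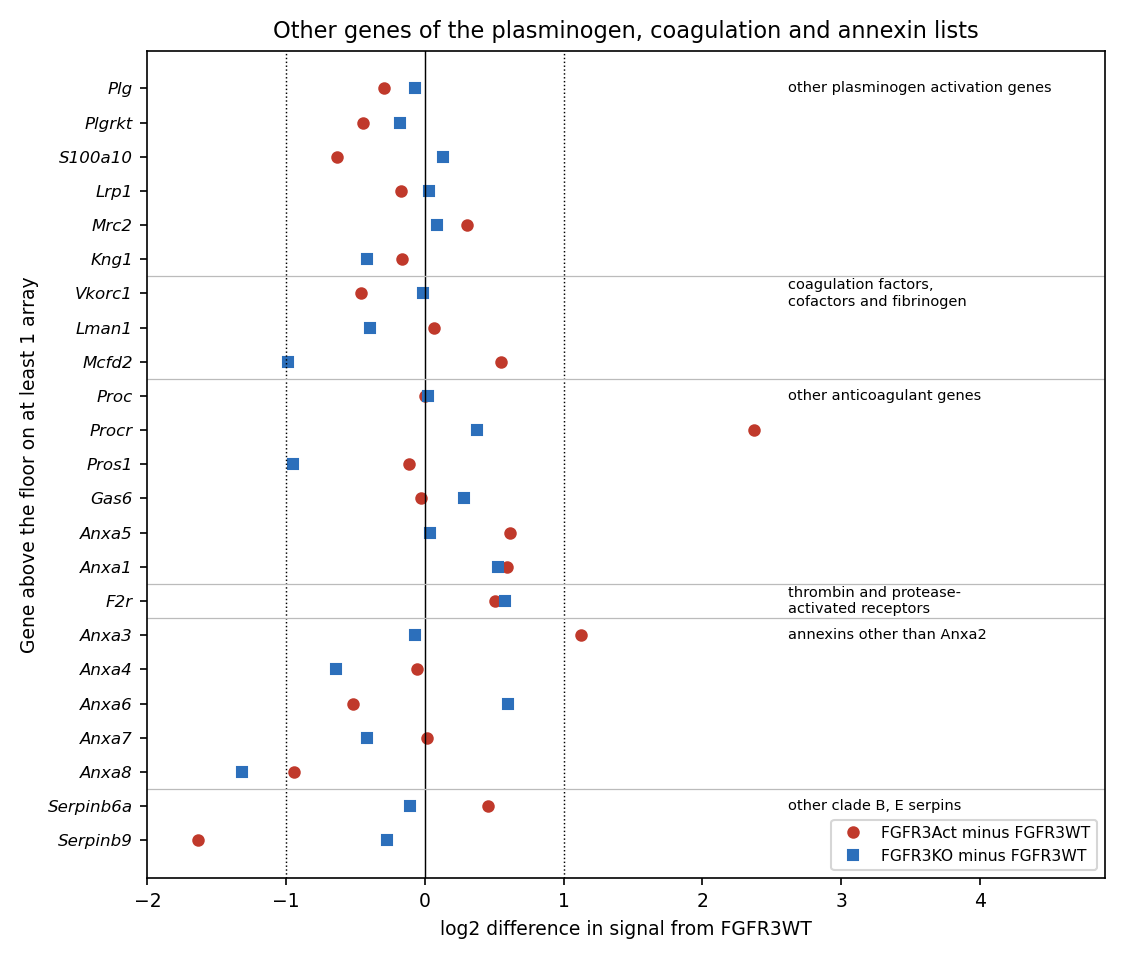
Log2 differences from FGFR3WT of the other pathway genes above the floor on at least 1 array, 1 row per gene and 1 point per mutant, grouped by list; dotted lines mark 2-fold. Procr (2.37), Anxa3 (1.12) and Serpinb9 (-1.64) pass 2-fold on FGFR3Act and Anxa8 (-1.32) on FGFR3KO; the F2r row shows its brightest probe set, with which the others disagree.

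Genes with the most similar pattern were found by the distance between log2 signals centred on each gene's own mean, over the 3 arrays and 5375 genes. With 3 arrays many genes come close, and the likeness says nothing of shared function. Nearest to Plaur were H3c14 (distance 0.01), Apcdd1 (0.03) and Ccnd2 (0.05). Nearest to Plau were Bnip2 (0.02), Slc39a8 (0.03) and Cavin2 (0.05). For Tfpi they were Lxn (0.10), Gpr27 (0.12) and Ccne1 (0.13), at greater distances.

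The settings bear on some of these differences. Across the 10 alternatives, Plat, Plaur, F3, Thbd and Tfpi kept their direction in all 3 pairs. The settings of floor, filter and probe sets left the values of these genes unchanged. Plau lost its differences at the 60th percentile floor, and Anxa2 changed sign in the pairs with FGFR3KO after quantile normalisation. The directions of Plaur and Plat between FGFR3KO and FGFR3WT came close to 0, at -0.03 and -0.05 in the settings nearest to it.

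**Figure D5:**
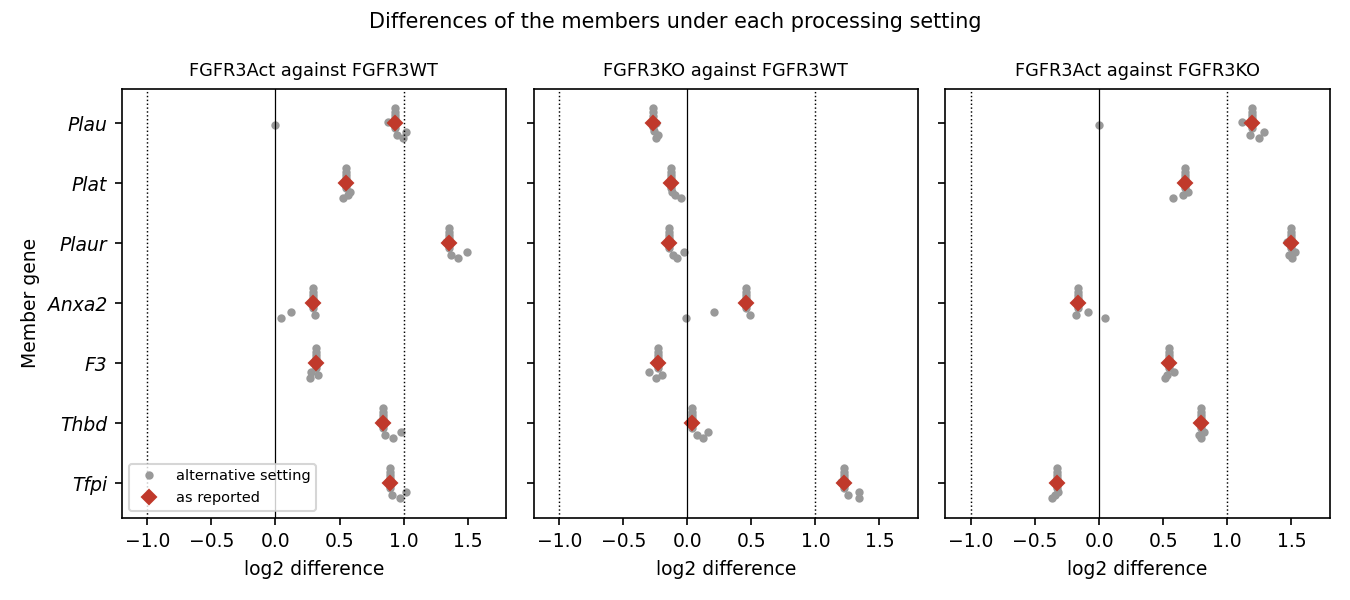
Log2 differences of the 7 genes above the floor in the 3 pairs of arrays, as reported (red diamonds) and under each alternative setting (grey points, spread vertically for legibility); dotted lines mark 2-fold. Plaur stays past 2-fold in both pairs with FGFR3Act and Tfpi in FGFR3KO against FGFR3WT, while the Plau points at 0 come from the floor at the 60th percentile. The settings of floor, filter and probe sets leave the Plaur and Tfpi values unchanged.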

How the data were processed

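RNA of cultured dermal fibroblasts was labelled as biotinylated cRNA from 15 μg of total RNA and hybridised to Affymetrix arrays, per the labels' protocols. The deposited values are signal intensities on a linear scale, made by the authors with MAS5 per the submitters' processing notes. Not given in the sources used here are its version, scaling target and any detection calls. The series states n = 3 per group while the table holds 1 column per genotype, and whether a column is a culture, a pool or a mean is not given. The number of arrays limits the precision, and no test between genotypes was made.

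Of 9889 probe sets, 18 controls were left out. Of the platform annotation's probe sets here, 9039 name 1 gene symbol and 323 several, and 9027 of the former were matched to RefSeq symbols by gene identifier. Of several probe sets of a gene, the brightest by mean log2 signal stood for it. Genes above the 40th percentile floor on 1 or both arrays of a pair were compared; a bound in the direction of the array at the floor was set to 0. The 10 alternatives were quantile normalisation, median centring, cyclic loess (limma 3.58.1), a floor at the 20th or the 60th percentile, log2 after adding 16 in place of a floor, requiring both arrays above the floor, no filter, averaging probe sets, and dropping special kinds such as _s_at. The difference code was tested on simulated data.

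The genes of the set and all lists were chosen with earlier results of these data known. All genes of the set were named, up to 4 genes at least 2-fold apart in any pair from each other list, and the 3 nearest patterns of each gene of the set at least 2-fold apart in any pair. S100a10, Plg, Plgrkt, Lrp1, Mrc2, Kng1, Lman1, Vkorc1, Pros1, Proc, F2r and Serpinb6a were named after their values were seen. Keratinocyte, mast cell and melanocyte marker lists had summed signals on FGFR3Act, FGFR3KO and FGFR3WT of 2323, 962 and 1026, of 496, 424 and 359, and of 216, 312 and 157. Most of the keratinocyte sums came from Perp, at 1928, 554 and 629. Of the 6 keratinocyte markers on the array, 4 were below the floor throughout, and Krt1 passed it on FGFR3KO alone.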

Additional observations from a re-analysis of the deposited data

How the results depend on the processing

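Of the 10 alternatives, cyclic loess and the floors changed counts of the set. For FGFR3Act against FGFR3WT, 3 genes were at least 2-fold apart after cyclic loess (Plau and Tfpi joined Plaur) and 2 under a 20th percentile floor. For FGFR3Act against FGFR3KO, 1 gene was under a 60th percentile floor. The count for FGFR3KO against FGFR3WT stayed at 1 in all 10. The medians of the set in the pairs with FGFR3Act stayed above 0 in all 10, lowest under the 60th percentile floor, at 0.43 against FGFR3WT and 0.27 against FGFR3KO. That of FGFR3KO against FGFR3WT became 0 under that floor and was below 0 in the other 9. Other lists moved by small counts. After quantile normalisation 2 annexins passed 2-fold on FGFR3Act against FGFR3WT, and after cyclic loess 1 coagulation gene on FGFR3KO against FGFR3WT. With the floor at the 20th percentile, plasminogen activation genes counted 2 on FGFR3Act and 1 on FGFR3KO, anticoagulant genes 2 and 2, and serpins 1 on FGFR3KO, all against FGFR3WT. Over all genes that floor gave 890, 592 and 1274 genes at least 2-fold apart in the 3 pairs, and the floor at the 60th percentile 258, 143 and 508, against 468, 287 and 838. The lower floor compares more and dimmer genes, 6727 in place of 5244 in FGFR3Act against FGFR3WT. No paired analysis was possible because each genotype has 1 array. No replicate could be left out for the same reason.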
